A study of Mus musculus with 10 samples.

Results

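Myosin heavy chains are the motor subunits of the myosins that pull on actin filaments. Their head splits ATP and their coiled tail joins filaments. In the adult mouse ventricle the fast chain encoded by Myh6 predominates, the slow chain encoded by its neighbour Myh7 belongs to the fetal heart, and a return of Myh7 is a well known feature of the stressed heart. Myh9, Myh10 and Myh14 encode nonmuscle chains found in most cells, and Myh11 encodes the chain of smooth muscle. The 7 genes Myh6, Myh7, Myh7b, Myh9, Myh10, Myh11 and Myh14 were chosen by name from 45882 gene IDs in the deposited files, and all 7 passed the filter on low values.

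The libraries were made from heart muscle cells dissociated from left ventricles of adult C57BL/6 mice, each with a mouse number of its own. There were 4 libraries from CTCF knockout mice, 3 from mice with transverse aortic constriction (TAC), a narrowing of the aorta that overloads the left ventricle, and 3 from control mice. The labels give the genotype of the knockout and control mice only. How the CTCF deletion was made, the promoter that drives any recombinase, the exact age of the mice and the time after TAC are not given in the sources used here. The series asks what the loss of CTCF, a DNA-binding protein that organizes chromatin loops, does to adult heart muscle cells, with pressure overload as a model of the diseased heart. Both comparisons with control use the same 3 control libraries, so their results are not independent.

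Values are FPKM (fragments scaled to transcript length and to the depth of the library) per transcript, summed by gene and rescaled between libraries by factors of 0.912 to 1.10. FPKM is a level per length, so levels can be set side by side between genes, though short transcripts weigh more in a sum. Changes were tested with limma on log2(FPKM + 1), with p-values adjusted over all 11358 tested genes and a call at an adjusted p under 0.05. A log2 fold change on this scale understates the change of genes near 1 FPKM. The files list no read counts. The coverage listed per unit of FPKM ran from 3.90 to 6.09 over the 10 libraries, 6 of which were female and 4 male by Xist and Y-linked genes. Ctcf itself stood at 2.90, 4.01, 2.60 and 4.42 FPKM in the CTCF knockout libraries, at 7.32, 5.70 and 5.22 FPKM in the TAC libraries and at 8.81, 8.34 and 6.80 FPKM in the control libraries. It fell in the knockout by 1.02 on the log2 scale (SE 0.16, adjusted p = 0.00136), and all knockout libraries lay below all control libraries. Of all tested genes, 16% were separated in that direction. Markers of cardiac myocytes dominated every library. The sum of 9 of them was 28562 to 37127 FPKM in the CTCF knockout, 30078 to 38453 FPKM under TAC and 35314 to 39676 FPKM in control libraries, and of the skeletal chain genes Myh2 was listed at 0 in all libraries.

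Of the 7 myosin heavy chain genes, Myh7, Myh9 and Myh10 rose in the CTCF knockout against control, Myh6 fell, and Myh7b, Myh11 and Myh14 did not pass. Among all tested genes 20.8% were called in this comparison, 10.6% as higher and 10.2% as lower. Under TAC, Myh9 and Myh10 rose against control, Myh7b fell, and 4 genes, Myh6, Myh7, Myh11 and Myh14, did not pass, where 15.5% of all tested genes were called, 8.08% as higher and 7.37% as lower. None of the 7 differed between the CTCF knockout and TAC by an adjusted p under 0.05, against 3.28% of all tested genes (1.58% higher and 1.7% lower). At an unadjusted p under 0.05, Myh7 and Myh7b did. The median log2 fold change of the 7 genes was 0.12 in the CTCF knockout against control, against -0.01 over all tested genes, and 0.14 under TAC.

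**Figure D1:**
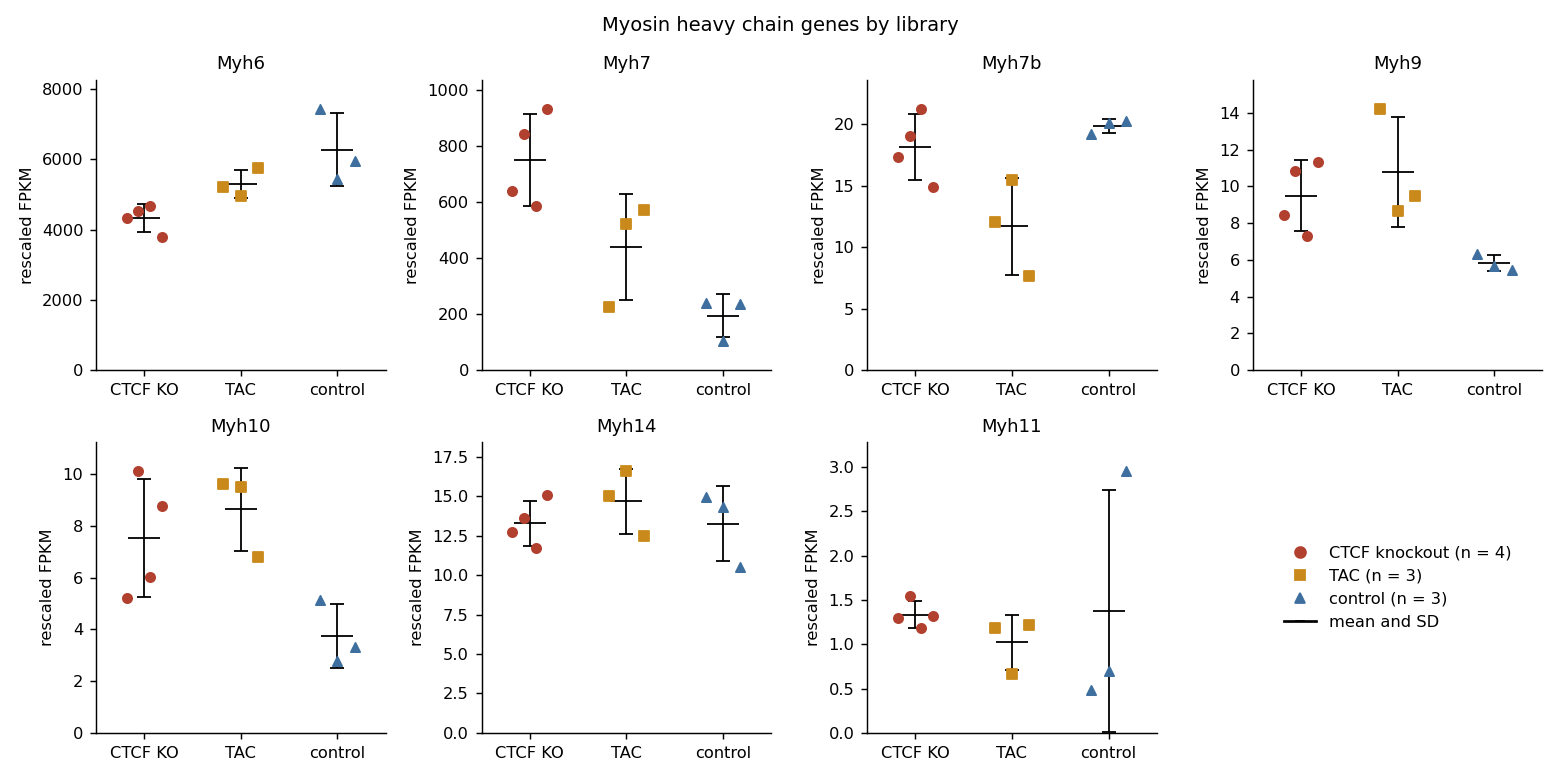
Rescaled FPKM of each myosin heavy chain gene (vertical axes, linear, from 0) in the 4 CTCF knockout, 3 TAC and 3 control libraries. Points are libraries and the bar gives the mean and SD. Knockout libraries sit highest for Myh7 and lowest for Myh6, TAC libraries sit below control libraries for Myh7b, and 1 control library stands above all others for Myh11.

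Myh6 and Myh7 lie head to tail on the minus strand of chromosome 14 in mm10, Myh7 (ENSMUSG00000053093) at chr14:54970688-54994634 and Myh6 (ENSMUSG00000040752) at chr14:54941981-54966927, with a gap of 3760 bases between them. Each carries a microRNA in an intron, and so does Myh7b (ENSMUSG00000074652), at chr2:155611212-155634307 on the plus strand. These 3 microRNAs are known in mouse as a linked set that helps to set the myosin type of the muscle. They are shown because the members host them. The sequences are from RefSeq with GRCm38.p6 coordinates, 5′ to 3′, with the seed, bases 2 to 8, in capitals.
miR-208a-3p: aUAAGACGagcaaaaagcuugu
miR-208b-3p: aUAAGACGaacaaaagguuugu
miR-499-5p: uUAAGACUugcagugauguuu

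MiR-208a-3p lies in intron 29 of the full-length Myh6 transcript (chr14:54949072-54949093) and miR-208b-3p in intron 31 of the full-length Myh7 transcript (chr14:54975710-54975731). MiR-499-5p lies in intron 19 of Myh7b (chr2:155622893-155622913). The 2 members of the miR-208 pair share the seed UAAGACG and differ at 3 of 22 bases, counted from 1 at the 5′ end, which are G10A, A16G and C18U with the miR-208a base first. The seed of miR-499-5p is UAAGACU. Mature microRNAs were not measured by these libraries.

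Myh7 had the largest change of the 7 genes in the CTCF knockout. It stood at 641, 841, 588 and 933 FPKM in the CTCF knockout libraries, at 224, 521 and 573 FPKM in the TAC libraries and at 241, 105 and 236 FPKM in the control libraries. All knockout libraries lay above all TAC and all control libraries, and TAC replicate 1 lay within the control range. Of all tested genes, 14.8% had every knockout library above every control library, and 8.43% had every knockout library above every TAC library. Myh7 averaged 751 ± 163 FPKM in the CTCF knockout (SD, n = 4), 439 ± 188 FPKM under TAC (SD, n = 3) and 194 ± 76.9 FPKM in controls (SD, n = 3). Its log2 fold change in the knockout was 2.02 (SE 0.35, adjusted p = 0.00248), a mean 3.87 times that of controls. Under TAC the log2 fold change was 1.16 (SE 0.38, adjusted p = 0.0600), and it moved with single libraries. It was 1.59 without TAC replicate 1 (adjusted p = 0.0133), 0.98 without TAC replicate 2 (0.173), 0.91 without TAC replicate 3 (0.182) and 0.77 without control replicate 2 (0.191). The knockout exceeded TAC by 0.86 on the log2 scale (95% interval 0.09 to 1.63, adjusted p = 0.225). Without TAC replicate 1 that difference was 0.43. Nppa, the natriuretic peptide gene of the atrium and of the fetal and stressed ventricle, also rose in the knockout, and it rose under TAC. It averaged 1363 FPKM in the knockout, 1786 FPKM under TAC and 43.7 FPKM in controls (log2 fold changes 4.90, adjusted p = 1.55e-06, and 5.24, adjusted p = 1.94e-06). Within the knockout it did not follow Myh7. Nppa stood at 1457, 1264, 1772 and 958 FPKM in the knockout libraries, the reverse order of Myh7. In the TAC libraries it stood at 1016, 1960 and 2381 FPKM, the same order as Myh7. Of the other tested atrial markers Kcnj3 fell in both, and whether atrial cells were present was not tested.

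Myh6 remained the most abundant of the 7 in every library. It stood at 4343, 4520, 4670 and 3778 FPKM in the CTCF knockout libraries, at 5218, 4955 and 5738 FPKM in the TAC libraries and at 7435, 5430 and 5960 FPKM in the control libraries. The knockout libraries lay below all others, and the TAC libraries overlapped the controls. Of all tested genes, 16% had every knockout library below every control library, and 9.64% below every TAC library. The log2 fold change in the knockout was -0.53 (SE 0.15, adjusted p = 0.0298), and under TAC it was -0.23 (SE 0.16, adjusted p = 0.371). Of 24 alternatives 10 ended this call, the most for any of the 4 calls in the knockout. It did not pass without control replicate 1 (-0.40, adjusted p = 0.102), control replicate 3 (adjusted p = 0.0658), or knockout replicate 1, 2 or 4 (adjusted p = 0.0632, 0.0618 and 0.0599). Of 9 cardiac myocyte markers, Myh6 among them, Tnni3, Ryr2 and Pln also fell in the knockout and Actn2 rose, while under TAC Tnni3 and Pln fell and Actn2 rose. Among all tested genes 10.2% were called lower and 10.6% higher in the knockout, and 7.37% and 8.08% under TAC. Over all alternatives the adjusted p of Myh6 ran from 0.00133 to 0.303.

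Part of the summed Myh6 level came from a short transcript. Of the 5 Myh6 transcripts, the full-length one (ENSMUST00000081857, 6053 bases in 39 exons) stood at 3569, 3479, 3728 and 3011 FPKM in the CTCF knockout libraries, at 3886, 3831 and 3783 FPKM in the TAC libraries and at 5000.4, 4061 and 4308 FPKM in the control libraries. Knockout libraries lay lowest and control libraries highest, with no overlap between the groups. Of all tested genes, 16% had every knockout library below every control library, and 9.64% below every TAC library. Every TAC library lay below every control library in 15.7%. These shares were not counted over transcripts. The change did not pass in a fit over 17685 transcripts (log2 fold change -0.37, SE 0.12, adjusted p = 0.0720 in the knockout, and -0.21, SE 0.13, adjusted p = 0.346 under TAC). A transcript of 419 bases and 4 exons, all of whose bases lie in exons of the 5′ end of the full-length one (ENSMUST00000134256), stood at 729, 977, 888 and 725 FPKM in the knockout libraries, at 1253, 1071 and 1925 FPKM in the TAC libraries and at 2355, 1282 and 1624 FPKM in the control libraries. It fell in the knockout by 1.05 on the log2 scale (SE 0.25, adjusted p = 0.0195), where 14.6% of all tested transcripts were called, 7.53% as lower and 7.12% as higher. Its mean share of the summed Myh6 FPKM was 19.1% in the knockout, 26.4% under TAC and 27.5% in controls, while the fraction entry of the files lists it at 0.909% to 2.26% of the gene. FPKM divides by length, so a short transcript weighs more in a sum of FPKM than in fragments.

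**Figure D2:**
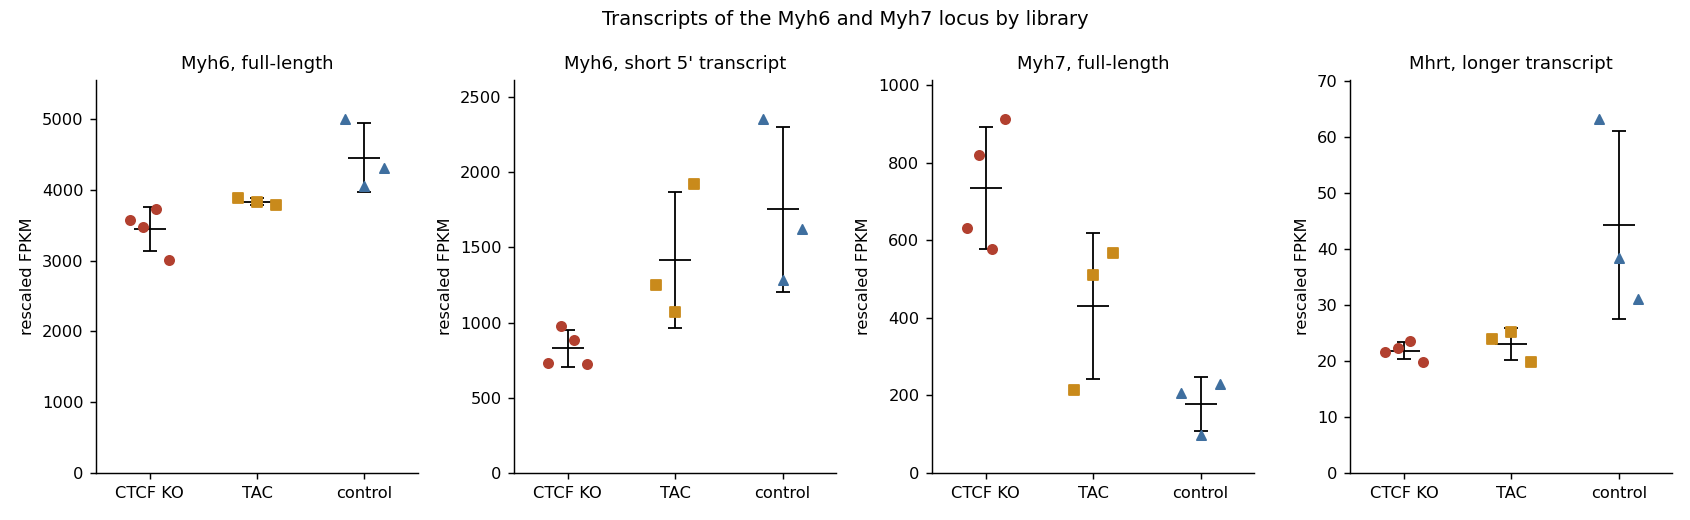
Rescaled FPKM (vertical axes, linear, from 0) of the full-length Myh6 transcript, the short 5′ Myh6 transcript, the full-length Myh7 transcript and the longer Mhrt transcript in the CTCF knockout, TAC and control libraries. Points are libraries and the bar gives the mean and SD. Knockout libraries lie below control libraries for both Myh6 transcripts and for Mhrt, and above them for Myh7.

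Nearly all of Myh7 was its full-length transcript (ENSMUST00000102803, 6139 bases in 41 exons), at 631, 819, 579 and 913 FPKM in the CTCF knockout libraries, 215, 511 and 566 FPKM in the TAC libraries and 207, 98.3 and 229 FPKM in the control libraries. Its log2 fold change was 2.11 in the knockout (SE 0.38, adjusted p = 0.00606) and 1.24 under TAC (SE 0.40, adjusted p = 0.0816). The longest annotated Myh7 transcript (ENSMUST00000168485, 6230 bases) was a minor one. It averaged 6.36 FPKM in the knockout, 4.69 FPKM under TAC and 10.8 FPKM in controls, with overlap between all groups.

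Myh6 and Myh7 are close copies, and reads from stretches they share cannot be assigned by sequence. Of the 6014 windows of 100 bases in the GENCODE M21 sequence of the full-length Myh6 transcript, 687 (11.4%) also occur in Myh7. The GENCODE M21 sequences of both transcripts differ in length from the deposited ones. The longest identical stretch is 245 bases of coding sequence. It lies at bases 4482 to 4726 of the GENCODE M21 sequence of Myh6 (chr14:54948327-54948725) and bases 4458 to 4702 of that of Myh7 (chr14:54974947-54975347), each interrupted by an intron. It is shown because it is longer than a read of 100 bases, and is taken from the GENCODE M21 transcripts on GRCm38, minus strand.
Myh6 and Myh7: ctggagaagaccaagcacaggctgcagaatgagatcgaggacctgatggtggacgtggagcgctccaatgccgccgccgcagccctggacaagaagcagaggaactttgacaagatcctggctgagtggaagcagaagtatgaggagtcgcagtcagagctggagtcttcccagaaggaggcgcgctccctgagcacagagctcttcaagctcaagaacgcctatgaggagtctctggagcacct

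How the submitters' pipeline split such fragments between Myh6 and Myh7 is not given in the sources used here, and its part in the levels was not tested. Myh9 and Myh10 share 23 such windows (0.314% of Myh9), and the other members share none with any other annotated gene.

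The Myh7 share of the summed Myh6 and Myh7 FPKM ordered the 3 groups. It was 12.9%, 15.7%, 11.2% and 19.8% in the CTCF knockout libraries, 4.12%, 9.51% and 9.08% in the TAC libraries and 3.13%, 1.90% and 3.80% in the control libraries. No 2 groups overlapped. The means were 14.9% ± 3.77 (SD, n = 4) in the knockout, 7.57% ± 2.99 (SD, n = 3) under TAC and 2.94% ± 0.966 (SD, n = 3) in controls. In a two-sided exact permutation test over libraries, the knockout exceeded control by 11.9 percentage points (p = 0.0571) and exceeded TAC by 7.31 points (p = 0.0571), and TAC exceeded control by 4.63 points (p = 0.1). These are the smallest p-values that groups of these sizes allow in this test, which therefore cannot reach 0.05 here, and adjusted over the 3 comparisons they are 0.0857, 0.0857 and 0.1. TAC replicate 1, at 4.12%, lay closest to the highest control library, at 3.80%. Without it the TAC mean exceeded the control mean by 6.35 points. With only the most abundant transcript of each gene the shares averaged 17.7% in the knockout, 10.01% under TAC and 3.80% in controls. With only the longest annotated transcript, which for Myh7 is the minor one above, they averaged 0.190%, 0.122% and 0.226%, and the order of the groups was lost.

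**Figure D3:**
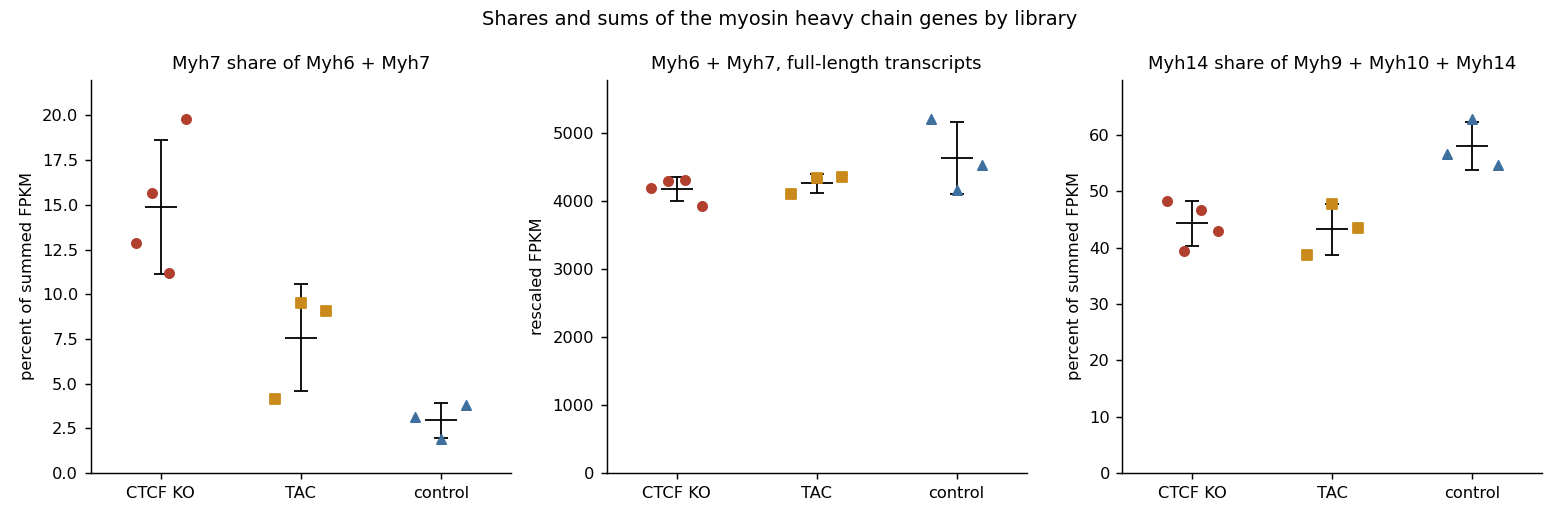
The Myh7 share of summed Myh6 and Myh7 FPKM (percent), the summed level of the full-length Myh6 and Myh7 transcripts (rescaled FPKM) and the Myh14 share of the summed nonmuscle chains (percent) by group, all axes linear from 0. Points are libraries and the bar gives the mean and SD. The Myh7 share separates the 3 groups, the summed level overlaps between them, and the Myh14 share is lower in all CTCF knockout and TAC libraries than in all control libraries.

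While the make-up shifted, the summed level of the full-length Myh6 and Myh7 transcripts overlapped between groups. It was 4200.1, 4298, 4307 and 3923 FPKM in the CTCF knockout libraries, 4101, 4342 and 4349 FPKM in the TAC libraries and 5208, 4159 and 4537 FPKM in the control libraries. Control replicate 1 alone lay clearly above the rest. With all transcripts summed, the total was 5078 ± 293 FPKM in the knockout (SD, n = 4), 5743 ± 492 FPKM under TAC (SD, n = 3) and 6469 ± 1096 FPKM in controls (SD, n = 3). There the knockout libraries lay below all others, and the short Myh6 transcript is counted in these totals.

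Between Myh6 and Myh7 lies the start of Mhrt (ENSMUSG00000097652, chr14:54968678-54974349, plus strand), an antisense RNA known in mouse heart as Myheart and reported to act on chromatin there. It stood at 34.1, 39.8, 34.3 and 31.0 FPKM in the CTCF knockout libraries, at 38.3, 35.1 and 25.1 FPKM in the TAC libraries and at 131, 63.9 and 43.2 FPKM in the control libraries. All knockout and TAC libraries lay below all controls, which themselves spread widely. Of all tested genes, 16% had every knockout library below every control library, and 15.7% had every TAC library below them. Mhrt fell in the knockout by 1.02 (SE 0.29, adjusted p = 0.0279) and under TAC by 1.12 (SE 0.31, adjusted p = 0.0314) on the log2 scale. Its direction against control was thus the opposite of that of Myh7, whose last exons it overlaps. Of the 828 bases of its longer transcript, 463 (55.9%) lie in Myh7 exons. The libraries were made with a stranded kit, but whether the counting used strand is not given in the sources used here, so reads of Mhrt and Myh7 cannot be told apart there. The shorter Mhrt transcript of 447 bases lies outside the exons of both full-length transcripts. It ran from 10.9 to 17.6 FPKM in the knockout, 5.27 to 14.4 FPKM under TAC and 12.1 to 67.6 FPKM in controls, where control replicate 1 was highest, and did not pass (adjusted p = 0.180 in the knockout and 0.1004 under TAC).

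**Figure D4:**
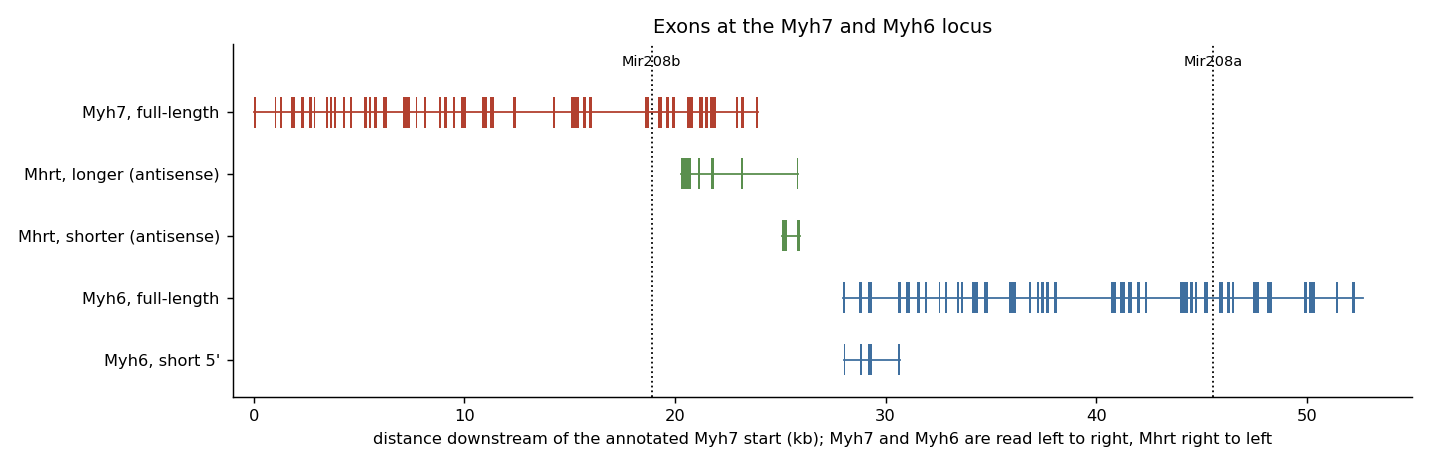
Exons (boxes) of the Myh7, Mhrt and Myh6 transcripts named in the text by distance in kb downstream of the annotated Myh7 start (horizontal axis). Dotted lines mark the hairpins of miR-208b and miR-208a. The longer Mhrt transcript lies over the last exons of Myh7, the shorter one lies between Myh7 and Myh6, and the short Myh6 transcript covers the first exons of Myh6.

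Of 23 neighbours of the pair within 100 kb, 5 were tested, and in the CTCF knockout 2 of them were called, Mhrt and Ngdn, which encodes a nucleolar protein, where 20.8% of all tested genes were called. Ngdn stood at 13.3, 13.6, 14.3 and 10.6 FPKM in the CTCF knockout libraries and at 9.62, 9.87 and 9.97 FPKM in the control libraries. All its knockout libraries lay above all its controls, and 14.8% of all tested genes were separated in that direction. The log2 fold change of Ngdn was 0.36 (SE 0.11, adjusted p = 0.0430). Bcl2l2, Pabpn1 and Thtpa were not called in any comparison.

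The promoters of Myh6 and Myh7 hold an MCAT element, the motif bound by the TEAD factors, within the 250 bases before a start annotated by RefSeq. The MCAT motif was searched as CATTCC, or GGAATG on the other strand, and 12.6% of 32851 RefSeq promoters hold a match in that window. Of the other members with a promoter entry, Myh7b, Myh9 and Myh14 had none and Myh10 had 1. Windows of 30 bases around the matches are shown 5′ to 3′ on the gene's strand, from RefSeq on GRCm38.p6, with the match in capitals.
Myh6: ctttggggaggaGGAATGtgcccaaggact
Myh7: ctagtgagccgtGGAATGttagagatattt
Myh10: cgggagcgggagccaatgagcatCATTCCa

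The match begins 206 bases before the start in Myh6 (window chr14:54966796-54966825, minus strand), 201 bases before it in Myh7 (chr14:54994810-54994839, minus strand) and 7 bases before it in Myh10 (chr11:68691885-68691914, plus strand). Myh7 has another annotated start downstream, whose window holds no match. The windows of Myh6 and Myh10 lie inside the deposited spans of these genes, which begin farther upstream with another transcript. The motif is thus present in a gene that fell, Myh6, and in genes that rose, Myh7 and Myh10, in the CTCF knockout. A match is a description of the letters and shows no binding.

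Myh7b encodes an ancient slow-type chain whose transcript in mouse heart is largely spliced so that it yields little protein, and it is the host of miR-499. It stood at 17.3, 19.0, 21.2 and 14.9 FPKM in the CTCF knockout libraries, at 12.01, 15.5 and 7.62 FPKM in the TAC libraries and at 19.2, 20.1 and 20.3 FPKM in the control libraries. The control libraries were nearly alike, every TAC library lay below them, and the knockout libraries spanned them. Of all tested genes, 15.7% had every TAC library below every control library. Myh7b fell under TAC by 0.76 on the log2 scale (SE 0.20, adjusted p = 0.0242). In the knockout its log2 fold change was -0.13 (SE 0.19, adjusted p = 0.656). The difference between knockout and TAC was 0.63 (95% interval 0.22 to 1.04, adjusted p = 0.0942), and it was 0.84 without TAC replicate 2 (adjusted p = 0.0494) and 0.38 without TAC replicate 3 (adjusted p = 0.224). Without TAC replicate 3, the lowest library, the change under TAC was -0.51 (adjusted p = 0.0604), and without control replicate 2 or 3 the adjusted p was 0.0637 or 0.0600.

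Of the 3 Myh7b transcripts 2 were tested. The full-length transcript (ENSMUST00000092995, 6163 bases) averaged 9.27 FPKM in the knockout, 6.35 FPKM under TAC and 9.84 FPKM in controls, with a log2 fold change of -0.60 under TAC (SE 0.21, adjusted p = 0.0955). A retained-intron transcript of 674 bases near the 3′ end (ENSMUST00000154656) averaged 8.58 FPKM in the knockout, 5.32 FPKM under TAC and 9.80 FPKM in controls. It fell under TAC by 0.82 (SE 0.21, adjusted p = 0.0361), where 10.1% of all tested transcripts were called, 4.43% as lower and 5.66% as higher. Close to Myh7b, Gss, a glutathione synthesis enzyme, rose in the knockout (log2 fold change 0.50, adjusted p = 0.0142), and Acss2, an acetyl-CoA synthetase, rose under TAC (0.42, adjusted p = 0.0319), out of 13 neighbours of which 4 were tested. Among all tested genes 10.6% were called higher in the knockout and 8.08% under TAC.

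**Figure D5:**
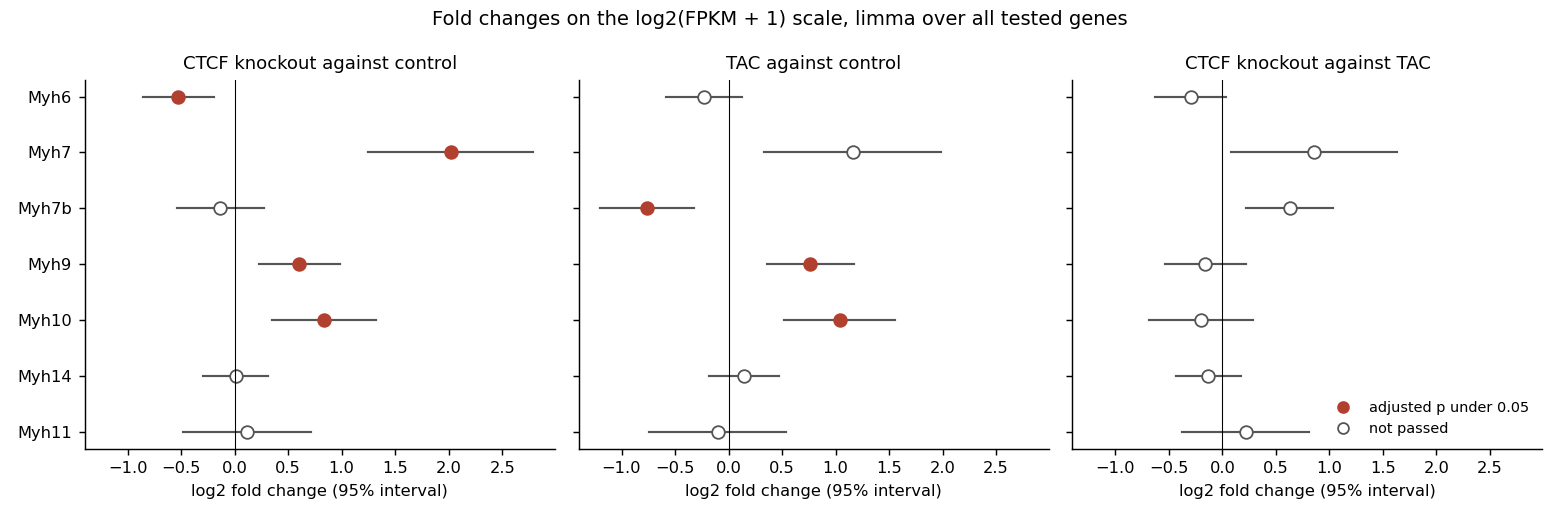
Log2 fold changes of the 7 genes on the log2(FPKM + 1) scale (horizontal axes) in CTCF knockout against control, TAC against control and CTCF knockout against TAC. Points are limma estimates, lines are 95% intervals and filled points passed an adjusted p under 0.05. Myh7 lies farthest to the right in both comparisons with control, and no point is filled in CTCF knockout against TAC.

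The nonmuscle chains Myh9 and Myh10 rose in both comparisons with control. Myh9 (ENSMUSG00000022443, chr15:77760587-77842175), the chain of nonmuscle myosin IIA, stood at 8.46, 10.9, 7.31 and 11.3 FPKM in the CTCF knockout libraries, at 14.2, 8.67 and 9.49 FPKM in the TAC libraries and at 6.31, 5.68 and 5.46 FPKM in the control libraries. Every knockout and TAC library lay above every control library, as did 14.8% of all tested genes for the knockout and 16% for TAC. The log2 fold change was 0.61 in the knockout (SE 0.17, adjusted p = 0.0294) and 0.76 under TAC (SE 0.19, adjusted p = 0.0174). Each call was lost without some single libraries. In the knockout these were control replicates 2 and 3 (adjusted p = 0.0806 and 0.0825) and knockout replicates 2 and 4 (0.0789 and 0.0718). Under TAC they were control replicates 2 and 3 (0.0502 and 0.0505) and TAC replicate 1 (0.0561).

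Myh10 (ENSMUSG00000020900, chr11:68691559-68816632), the chain of nonmuscle myosin IIB, which is abundant in the embryonic heart, stood at 5.22, 10.1, 6.03 and 8.78 FPKM in the CTCF knockout libraries, at 9.63, 9.49 and 6.79 FPKM in the TAC libraries and at 5.15, 2.78 and 3.30 FPKM in the control libraries. The knockout and TAC libraries again lay above all controls, knockout replicate 1 by a narrow margin. Of all tested genes, 14.8% were separated in that direction for the knockout and 16% for TAC. The log2 fold change of Myh10 was 0.84 in the knockout (SE 0.22, adjusted p = 0.0208) and 1.04 under TAC (SE 0.24, adjusted p = 0.0130). The knockout call did not pass without control replicate 2 or 3 (adjusted p = 0.0865 and 0.0641) or without knockout replicate 2 or 4 (0.0562 and 0.0524), and the TAC call did not pass without control replicate 2 (0.0508). The full-length Myh10 transcript (ENSMUST00000102611, 7791 bases) rose in both, with log2 fold changes of 0.88 in the knockout (adjusted p = 0.0221) and 1.19 under TAC (adjusted p = 0.0113). The other tested Myh10 transcript, of 1811 bases at the 3′ end (ENSMUST00000139059), averaged 2.08 FPKM in the knockout, 1.70 FPKM under TAC and 0.904 FPKM in controls. All its knockout and TAC libraries lay above its control libraries, a separation whose share was not counted over transcripts. It did not pass (0.69, adjusted p = 0.05003, and 0.53, adjusted p = 0.160).

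Myh14 (ENSMUSG00000030739, chr7:44605803-44670843), the chain of nonmuscle myosin IIC, did not pass in any comparison. It stood at 12.7, 13.6, 11.7 and 15.1 FPKM in the CTCF knockout libraries, at 15.0, 16.6 and 12.5 FPKM in the TAC libraries and at 15.0, 14.3 and 10.5 FPKM in the control libraries, with overlap throughout. Its log2 fold change was 0.01 in the knockout (95% interval -0.29 to 0.32, adjusted p = 0.966) and 0.14 under TAC (95% interval -0.18 to 0.47, adjusted p = 0.565). The Myh14 share of the 3 nonmuscle chains was 44.3% ± 3.99 in the knockout (SD, n = 4), 43.2% ± 4.56 under TAC (SD, n = 3) and 58.0% ± 4.29 in controls (SD, n = 3). It was lower in each knockout and TAC library than in each control library.

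Nonmuscle chains are also made by the other cells of the heart, and fewer cells of a type and less RNA per cell cannot be told apart in such samples. For the marker counts here, 10.6% of all tested genes were called higher and 10.2% lower in the knockout, and 8.08% and 7.37% under TAC. Of 9 tested fibroblast markers, 4 rose in each comparison with control, Col1a1, Col1a2, Col3a1 and Mfap5, and none fell. The summed level of the 10 listed fibroblast genes was 242 to 373 FPKM in the CTCF knockout, 269 to 331 FPKM under TAC and 143 to 282 FPKM in controls, so the groups overlapped. Of 12 endothelial markers, Eng, Emcn and Vwf rose in the knockout and none was called under TAC, with sums of 182 to 289 FPKM in the knockout, 233 to 279.7 FPKM under TAC and 179 to 249 FPKM in controls. Of 11 macrophage and leukocyte markers, Coro1a and Adgre1 rose and Cd163 fell in the knockout, Coro1a alone was called under TAC, and the sums were 72.0 to 122 FPKM in the knockout, 102 to 119.6 FPKM under TAC and 67.2 to 90.3 FPKM in controls. The part of these cells in the Myh9 and Myh10 changes was not tested.

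Myh11 (ENSMUSG00000018830, chr16:14194527-14291408) had 1 annotated transcript and the lowest level of the 7. It stood at 1.30, 1.54, 1.18 and 1.32 FPKM in the CTCF knockout libraries, at 1.18, 0.667 and 1.22 FPKM in the TAC libraries and at 0.488, 0.696 and 2.95 FPKM in the control libraries. Control replicate 3 lay above every other library and the other controls lay low, a 6.04-fold range within the group, against 1.30-fold in the knockout and 1.83-fold under TAC. The interval deposited by the authors for control replicate 3, 2.66 to 3.23 FPKM after rescaling, does not reach any other library. The log2 fold change was 0.12 in the knockout (SE 0.27, adjusted p = 0.805) and -0.10 under TAC (SE 0.29, adjusted p = 0.855). Without control replicate 3 these were 0.55 (adjusted p = 0.0322) and 0.34 (adjusted p = 0.209). Of 11 tested smooth muscle and pericyte markers, Cspg4 rose and Abcc9, Acta2 and Smtn fell in the knockout. Cspg4 and Des rose and Smtn, Abcc9 and Acta2 fell under TAC. Among all tested genes 10.6% were called higher and 10.2% lower in the knockout, and 8.08% and 7.37% under TAC. Des averaged 616 FPKM in the knockout, 985 FPKM under TAC and 482 FPKM in controls. Abcc9 averaged 24.2, 32.2 and 64.5 FPKM, and Myh11 1.33, 1.02 and 1.38 FPKM, in the same order. Which cells these marker levels came from was not tested.

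Set in order of summed level per length, the controls ran Myh6, Myh7, Myh7b, Myh14, Myh9, Myh10 and Myh11, with overlap between libraries only at the last step. The CTCF knockout kept that order, but there Myh7b (14.9 to 21.2 FPKM) overlapped Myh14 (11.7 to 15.1 FPKM), and Myh9 (7.31 to 11.3 FPKM) overlapped Myh10 (5.22 to 10.1 FPKM). Under TAC, Myh14 at a mean of 14.7 FPKM stood before Myh7b at 11.7, Myh9 at 10.8 and Myh10 at 8.64 FPKM, and each overlapped the next. The place of Myh7b rests on the sum, of which its short retained-intron transcript made up a mean of 49.4% in controls. Full-length Myh7b alone stood at 9.37, 9.66 and 10.5 FPKM in the control libraries. The most abundant Myh14 transcript (ENSMUST00000107899) stood at 10.1, 9.81 and 8.33 FPKM there, so they overlapped. The skeletal and other sarcomeric chains, Myh1, Myh2, Myh3, Myh4, Myh8, Myh13 and Myh15, stayed at or under 0.151 FPKM in every library. The highest of these values was Myh8, a perinatal chain, in TAC replicate 2.

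The genes whose levels followed Myh7 most closely over the 10 libraries were Elovl1 (Pearson r = 0.97), Abat (0.97), Nt5e (0.96), Mapre2 (0.96) and Xrcc2 (0.96), on the log2 scale. Elovl1, an enzyme that lengthens fatty acids, averaged 6.14 FPKM in the CTCF knockout, 5.37 FPKM under TAC and 3.59 FPKM in controls. Among those most like Myh6 were Acss1 (r = 0.93), Ankrd9 (0.92), Cul5 (0.91) and Dsc2 (0.91). Acss1, a mitochondrial acetyl-CoA synthetase, averaged 71.5 FPKM in the knockout, 88.9 FPKM under TAC and 111 FPKM in controls. Myh6 and Myh7 themselves had r = -0.66. The libraries fall into 3 groups, so these values describe likeness and are given with no test.

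Partners of the heavy chains were read from lists by role. Beside the counts of all these lists, 10.6% of all tested genes were called higher and 10.2% lower in the CTCF knockout. Under TAC these shares were 8.08% and 7.37%, and in the knockout against TAC they were 1.58% and 1.7%. Of 10 myosin light chain genes, 2 rose in the CTCF knockout, Myl12a (log2 fold change 0.53, adjusted p = 0.0335) and Myl6 (0.37, adjusted p = 0.0481). They encode a regulatory and an essential light chain of nonmuscle myosin. Myl12b, another nonmuscle regulatory chain, named after its values were seen, did not pass in the knockout (0.0088, adjusted p = 0.981) or under TAC (-0.013, adjusted p = 0.972). Under TAC, Myl12a (0.83, adjusted p = 0.00740) and Myl1 (0.94, adjusted p = 0.0120), a light chain of fast skeletal muscle, rose. None fell. Myl1 averaged 28.5 FPKM in the knockout, 55.8 FPKM under TAC and 28.8 FPKM in controls, and was lower in the knockout than under TAC by 0.97 on the log2 scale (adjusted p = 0.0254). The light chain list had a median log2 fold change of 0.20 in the knockout and 0.07 under TAC, against -0.01 and -0.00 over all tested genes.

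Of 11 tested genes that add or remove phosphate on the light chains or regulate those enzymes, 2 rose and 4 fell in the CTCF knockout, and 1 rose and 2 fell under TAC. Mylk4, a myosin light chain kinase of heart, averaged 8.38 FPKM in the knockout, 10.4 FPKM under TAC and 27.5 FPKM in controls. It fell by 1.53 in the knockout (adjusted p = 0.00950) and by 1.33 under TAC (adjusted p = 0.0322) on the log2 scale. Mylk3, the cardiac light chain kinase, fell under TAC (-0.75, adjusted p = 0.00713), and Ppp1cb, the catalytic subunit of myosin phosphatase, fell in the knockout (-0.50, adjusted p = 0.00225). Ppp1r12a, a targeting subunit of the same phosphatase, rose in both (0.42, adjusted p = 0.0120, and 0.38, adjusted p = 0.0339), and Dapk3, a kinase that acts on myosin light chain, rose in the knockout (0.51, adjusted p = 0.00830). Rock1 and Ppp1r12c were the other genes that fell in the knockout (-0.43, adjusted p = 0.0155, and -0.38, adjusted p = 0.0447).

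Among 15 tested genes of myosin binding, folding and filament assembly, 4 rose and 1 fell in the CTCF knockout, and 5 rose and 2 fell under TAC. Mybpc3, the cardiac myosin binding protein C, averaged 1404 FPKM in the knockout, 1271 FPKM under TAC and 795 FPKM in controls, and rose in both (0.83, adjusted p = 0.000966, and 0.68, adjusted p = 0.00608). Myom2, an M-band protein that crosslinks myosin filaments, rose in both (0.97, adjusted p = 0.000721, and 0.77, adjusted p = 0.00593), and Mybpc2 did so too (0.64, adjusted p = 0.0326, and 1.30, adjusted p = 0.00159). Unc45b, the chaperone that folds the muscle myosin head, fell in both (-0.73, adjusted p = 0.00513, and -0.72, adjusted p = 0.0103). Myom3 rose in the knockout (1.06, adjusted p = 0.000226) and Myom1 under TAC (0.76, adjusted p = 0.00132). Under TAC, Csrp3, a Z-disc LIM protein, also rose (1.12, adjusted p = 0.00866), and Unc45a also fell (-0.44, adjusted p = 0.0433). Of this list Myom1 was lower (-0.51, adjusted p = 0.0280) and Myom3 higher (0.66, adjusted p = 0.0184) in the knockout than under TAC. The median log2 fold change of the list was 0.27 in the knockout and 0.45 under TAC.

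Of 11 unconventional myosins, which carry cargo or anchor membranes and form no thick filaments, Myo1c and Myo9b rose in the CTCF knockout and 5 rose under TAC, while none fell. Among all tested genes 10.6% were called higher in the knockout and 8.08% under TAC. Myo1c averaged 29.0 FPKM in the knockout, 31.1 FPKM under TAC and 19.1 FPKM in controls, with log2 fold changes of 0.57 (adjusted p = 0.00748) and 0.67 (adjusted p = 0.00657). Under TAC, Myo18b, a sarcomere protein, rose by 0.79 on the log2 scale (adjusted p = 0.0137), and Myo18a and Myo1e rose too (0.47, adjusted p = 0.0306, and 0.51, adjusted p = 0.0384). The medians of the list were 0.22 in the knockout and 0.46 under TAC.

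Of 33 tested regulators of the Myh6 and Myh7 genes, none rose, 8 fell in the CTCF knockout and 10 fell under TAC. Of all tested genes, 10.2% were called lower in the knockout and 7.37% under TAC. Thyroid hormone is known to favour Myh6 over Myh7. Thrb, a thyroid hormone receptor, averaged 3.05 FPKM in the knockout, 2.70 FPKM under TAC and 5.18 FPKM in controls, and fell by 0.61 (adjusted p = 0.00202) and by 0.74 (adjusted p = 0.00130) on the log2 scale. Its partner Rxra fell by 0.65 (adjusted p = 0.00148) and by 0.59 (adjusted p = 0.00536), and Rxrg (-0.51, adjusted p = 0.0125) fell in the knockout but did not pass under TAC (-0.29, adjusted p = 0.153). Thra, the other thyroid hormone receptor gene, named after its values were seen, averaged 17.0 FPKM in the knockout, 20.2 FPKM under TAC and 22.5 FPKM in controls, and fell in the knockout (-0.37, adjusted p = 0.0299) but did not pass under TAC (-0.14, adjusted p = 0.464). Rxrb, also named after its values were seen, did not pass in either (-0.07, adjusted p = 0.727, and -0.15, adjusted p = 0.484). Dio2, which encodes an enzyme that activates the hormone and was too low to be tested, averaged 1.01 FPKM in the knockout, 1.22 FPKM under TAC and 0.139 FPKM in controls, and was likewise named after its values were seen. The heart transcription factors Tbx5 (-0.51, adjusted p = 0.0129, and -0.87, adjusted p = 0.00132) and Mef2a (-0.40, adjusted p = 0.0152, and -0.63, adjusted p = 0.00290) fell in both. No regulator was called between the knockout and TAC, where only 3.28% of all tested genes were called. The median of the list was -0.10 in the knockout and -0.15 under TAC.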

How the data were processed

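The authors deposited 1 transcript table per library with FPKM for each annotated transcript, made with TopHat2 2.1.0, Bowtie2, Cufflinks 2.2.1 and Cuffdiff on mm10, per the submitters' processing notes. The score column that the authors deposited beside it was not used. The labels name polyA RNA, while the protocol describes Ribo-Zero removal of ribosomal RNA, so the selection is uncertain. FPKM was summed by gene ID. Gene IDs with a longest transcript under 300 bases, and 22 listed at 0 in some libraries and at a median of at least 100 FPKM in the rest, were set apart. To bring libraries to one scale, each was divided by its median ratio to the geometric mean over genes of mean FPKM of at least 1, the same minimum as for testing. Fits used limma 3.58.1 in R 4.3.3 over all 10 libraries, with a trended prior variance, Benjamini-Hochberg adjustment and a pseudocount of 1, and the code was tested on simulated data. Each library is a mouse of its own, and p-values measure the spread between these libraries. The members and lists were chosen with earlier results of these data known. Named were the 7 members, Ctcf, the 5 genes most correlated with Myh7 and with Myh6, up to 4 tested genes per list by adjusted p, genes needed to state a small count, and neighbours within 100 kb; 1 gene that this rule names is not reported here. Alternatives covered the pseudocount, filters, scaling, covariates, transcript choice and leaving out each library.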

Additional observations from a re-analysis of the deposited data

Results flagged for a closer look

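Over 40 quantities of these genes and their transcripts, the 4 CTCF knockout libraries were searched for a library far from the other 3, and 2 were found, where chance gives about 1 in 20. Both are minor transcripts, both lowest in knockout replicate 1. The Myh6 transcript ENSMUST00000124930 stood at 1.59 FPKM there, against 2.72 to 2.95 FPKM in the other knockout libraries. The Myh14 transcript ENSMUST00000048102 stood at 1.13 FPKM there, against 1.85 to 1.94 FPKM in the others. The search was run in the knockout libraries only, so the high control replicate 3 of Myh11 was not covered by it.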

How the results depend on the processing

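Of 498 values of the 7 genes under alternatives, 445 kept their direction and side of the threshold, 36 lost a call, 5 gained one and 12 changed sign. The sign changes were those of Myh7 with the longest transcript only (-0.46 in the CTCF knockout and -0.69 under TAC), a choice made after seeing the data that keeps a minor Myh7 transcript, and of genes that were not called. With it the Myh7 share difference was -0.0359 points in the knockout and -0.104 points under TAC. Leaving out single libraries, Myh11 ran from -0.15 to 0.55 in the knockout and from -0.37 to 0.34 under TAC, Myh14 from -0.13 to 0.10 and from -0.0032 to 0.25, and Myh9 from -0.29 to 0.0402 in knockout against TAC. Genes called numbered 2362 in the knockout, 1755 under TAC and 372 in knockout against TAC. With a minimum of 5 FPKM they were 1487 and 1167, and TAC with control alone gave 1152. Knockout against TAC gave 195 with no filter, 233 with sex as a covariate, 234 with the longest transcript, and 133 to 448 leaving out single libraries. Without rescaling, 73.5% of calls were higher in the knockout (50.9% with it), 66.4% under TAC (52.3%) and 63.9% in knockout against TAC (48.1%), and the median of all genes in the knockout moved by 0.11; there the Myh6 change was -0.40 (adjusted p = 0.127) and Myh7 under TAC passed (1.22, adjusted p = 0.0439). Causes were not tested.

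Replicate numbers are shared between groups, but same-numbered libraries did not deviate together. Their correlations ran from -0.36 to 0.33, 4 of 9 pairs were over 0.1, and 1 of 9 libraries correlated best with its own number. With the replicate block 1816, 1544 and 200 genes were called in the 3 comparisons. Knockout replicate 4 has no same-numbered library, so the block also takes it out of the contrasts. Leaving it out with no block gave 1958 genes in the knockout against control and 274 in knockout against TAC, and the same fold changes of the 7 genes as the block. With the block Myh6, Myh9 and Myh10 were not called in the knockout (adjusted p = 0.0654, 0.0723 and 0.0636), Myh14 turned to -0.0472, and the mean share differences were 10.3, 4.63 and 5.67 points.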
